A study of Mus musculus with 10 samples.

Results

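Fgf5, Fgf8, Otx2, Car4 and Gsc are 5 genes of the primed and formative states of pluripotency and of the early axial lineages. They were chosen by symbol from a table of 20494 lines. Symbols could be used in the first 9865 lines, which hold all 5. The RNA came from a mouse embryonic stem cell line labelled C57BL6X129S6F1, grown in 5 culture conditions with 2 libraries each, 10 libraries in all. In SL, cells had KO-DMEM with 15% FBS and 1000 IU of mLIF (mouse leukaemia inhibitory factor). The other 4 conditions are serum-free, in N2B27 with the same 1000 IU mLIF and with Chir99021, a GSK3 kinase inhibitor, at 3 µM. In 2iL the medium also held 1 µM PD0325901, which inhibits the ERK-activating kinase MEK. In A2iL it held 1.5 µM CGP77675, an inhibitor of Src kinases, and in LCDM 2 µM of a compound written Dim and 2 µM of another written Mih. Cells labelled 2iL-F had 2iL medium but no feeder cells, while the labels give feeder cells to the other 4. The 2 libraries are numbered 3 and 5 in the labels and are called the first and the second below, with values in that order. No label says that the 2 libraries of a condition are separate cultures, and p-values therefore reflect only the spread between libraries, which could be technical.

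The values are TPM, a unit that corrects for transcript length and library total and keeps no read number. Depth, and the precision it would give, is therefore unknown. Markers of embryonic stem cells were present in every library: the summed TPM of 5 of them (Nanog, Esrrb, Pou5f1, Sall4 and Tdgf1) was 1706 to 2853. Markers of fibroblasts, the usual feeder cells, went against the feeder labels. The sum of 32 such markers was 5288 and 5491 TPM in the libraries labelled 2iL-F and 988 and 1044 TPM in those labelled 2iL, where Lox, Dcn, Thbs2, Dpt, Postn, Bgn and Fap were listed at 0. It was 4378 to 4595 TPM in SL, 3581 to 3672 TPM in A2iL and 1265 to 1266 TPM in LCDM. Below, 2iL and 2iL-F mean the libraries that carry those labels; both labels name the same medium. In bulk RNA of this kind, fewer cells of a type and less RNA per cell cannot be told apart.

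Naive pluripotency corresponds to the epiblast before implantation and primed pluripotency to the epiblast after it, with a formative state between them. FGF signals through receptor tyrosine kinases to MEK and ERK and moves mouse embryonic stem cells out of the naive state. Fgf5 encodes a secreted ligand that is a classical marker of the post-implantation epiblast. Fgf8 encodes a ligand of the gastrulating embryo that is needed for cells to migrate away from the primitive streak. Otx2 encodes a homeobox factor of the formative epiblast and later of the anterior brain. Gsc encodes the homeobox repressor goosecoid of the organizer and the axial mesendoderm, a target of Nodal and activin signalling. Car4 encodes a membrane-anchored carbonic anhydrase, an enzyme that interconverts carbon dioxide and bicarbonate.

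In mm10 (GENCODE vM21), Fgf5 lies on chromosome 5 from 98254184 to 98277030 on the plus strand, and Car4 on chromosome 11 from 84957786 to 84966044, also on the plus strand. Fgf8 lies on chromosome 19 from 45736798 to 45742915, Gsc on chromosome 12 from 104471209 to 104473330 and Otx2 on chromosome 14 from 48657677 to 48673819, all on the minus strand. Otx2 overlaps the noncoding gene Otx2os1, annotated on the opposite strand, and the transcript Gm49154 on its own strand, and whether counting used strand is not given in the sources used here, so reads from these genes cannot be told apart within the overlaps. The bases just before the annotated starts are shown because the members fell into 2 patterns across the media. They are from RefSeq for GRCm38.p6, whose promoter table held 4 of the 5 genes. Capitals mark matches to 5 short motifs that were searched on both strands of the 250 bases before each start: TAATCC of the OTX and GSC factors, ATCAAAG of the TCF and LEF factors of Wnt signalling, CCGGAA of the ETS factors downstream of ERK, AATNCACA of FOXH1, the Nodal effector, and the octamer ATGCAAAT.
Fgf5, chr5:98253934-98254183, plus strand: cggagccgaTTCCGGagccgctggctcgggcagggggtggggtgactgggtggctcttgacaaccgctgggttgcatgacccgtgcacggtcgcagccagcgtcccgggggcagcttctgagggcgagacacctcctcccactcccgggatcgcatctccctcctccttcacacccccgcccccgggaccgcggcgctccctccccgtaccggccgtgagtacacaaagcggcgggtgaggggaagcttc
Car4, chr11:84957504-84957753, plus strand: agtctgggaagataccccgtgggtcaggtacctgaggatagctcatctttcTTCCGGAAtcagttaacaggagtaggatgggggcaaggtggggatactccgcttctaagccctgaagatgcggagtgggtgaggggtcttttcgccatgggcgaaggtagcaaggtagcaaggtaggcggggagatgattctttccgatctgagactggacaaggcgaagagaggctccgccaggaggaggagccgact
Gsc, chr12:104473331-104473486, minus strand, the part of its window outside annotated exons: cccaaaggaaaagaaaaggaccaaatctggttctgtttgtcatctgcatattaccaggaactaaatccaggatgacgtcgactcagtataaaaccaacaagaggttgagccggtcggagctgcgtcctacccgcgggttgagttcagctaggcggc
Otx2, chr14:48665303-48665332, minus strand: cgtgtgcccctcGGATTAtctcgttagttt

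The Fgf5 window held 1 ETS match, on the reverse strand 241 bases before the start. Car4 held the same motif on both strands as an overlapping palindrome, 199 and 197 bases before its start. The Otx2 match is to the reverse of TAATCC, 211 bases before 1 of its 4 listed starts, and all 250 bases of that window lie inside annotated exons. No match to the 5 motifs stood in the Gsc window. Of 32851 promoter windows of this length, 12% held CCGGAA, 6.25% TAATCC, 3.21% ATCAAAG, 3.18% AATNCACA and 1.6% ATGCAAAT, on either strand.

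The 5 genes followed 2 patterns. Fgf5, Fgf8 and Car4 were highest in SL and at or near 0 in all 4 serum-free conditions. Otx2 and Gsc were highest in 2iL and 2iL-F, the conditions with PD0325901, and low in SL, A2iL and LCDM. Differences are given as log2(TPM + 1) ± SE from limma, with p-values adjusted by Benjamini-Hochberg over 14578 tested lines, a scale on which changes at low TPM come out too small. A gene passed at an adjusted p below 0.05. Differences this large against the spread were common in the series: against SL, 77.7% of all tested lines passed for 2iL, 65.4% for 2iL-F, 65.9% for LCDM and 53.8% for A2iL, and 61.7% passed between 2iL-F and 2iL. By direction, 40.9% of lines were lower and 36.7% higher in 2iL than in SL, 31.9% and 21.9% in A2iL, 33.7% and 32.2% in LCDM and 37.3% and 28.1% in 2iL-F, and 32.5% were lower and 29.2% higher in 2iL-F than in 2iL. Of the 5 genes, 3 were lower and 2 higher in 2iL and in 2iL-F than in SL, 3 were lower in A2iL, and 4 were lower and 1 higher in LCDM; between 2iL-F and 2iL 1 was lower. The 4 comparisons with SL share its 2 libraries. Where libraries of different conditions are said below to lay apart, this describes levels only. The share of all tested lines that lay apart in the same way was not counted.

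**Figure D1:**
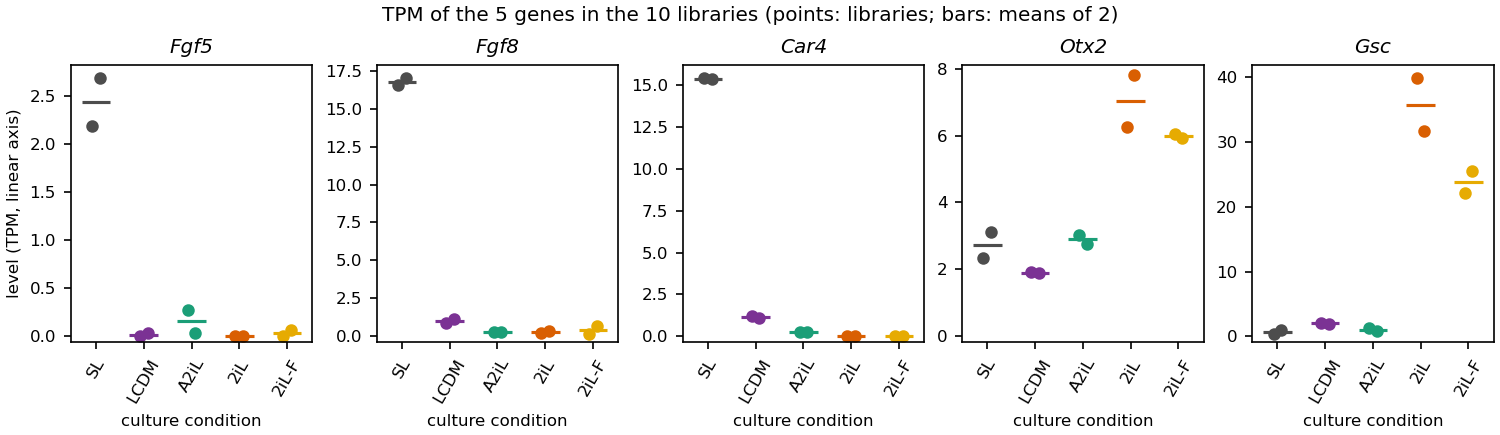
TPM of Fgf5, Fgf8, Car4, Otx2 and Gsc in each of the 10 libraries (points), by culture condition, with the mean of 2 libraries as a bar; each panel has its own linear axis. Fgf8 stands at 16.5 and 17.0 TPM in SL and at no more than 1.11 TPM elsewhere, while Gsc stands at 22.1 to 39.9 TPM in 2iL and 2iL-F and at no more than 1.99 TPM elsewhere.

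Among the ligands, Fgf8 had 16.5 and 17.0 TPM in the 2 SL libraries, a mean of 16.8 ± 0.342 (SD, n = 2). The other libraries had 0.195 and 0.366 TPM in 2iL, 0.253 and 0.271 in A2iL, 0.864 and 1.11 in LCDM, and 0.132 and 0.647 in 2iL-F. Both SL libraries lay above the other 8, and the mean TPM of SL was 59.8 times that of 2iL, 64.2 times that of A2iL, 17.0 times that of LCDM and 43.1 times that of 2iL-F. On the log2 scale the differences from SL were -3.80 ± 0.17 in 2iL (adjusted p = 1.05e-07, limma), -3.82 in A2iL (adjusted p = 5.77e-07), -3.16 in LCDM (adjusted p = 7.43e-07) and -3.70 in 2iL-F (adjusted p = 2.79e-07). Among the serum-free media, Fgf8 was higher in LCDM than in 2iL-F by 0.54 ± 0.17 (adjusted p = 0.0230), than in 2iL by 0.63 (adjusted p = 0.0105) and than in A2iL by 0.65 (adjusted p = 0.0108), against 59.5%, 62.3% and 54.0% of all lines that passed in these comparisons. With a pseudocount of 0.1 these 3 differences came to 1.37, 1.54 and 1.58. The calls were lost without the second LCDM library (adjusted p = 0.115, 0.0630 and 0.0656), the first also without the first 2iL-F library (0.27, adjusted p = 0.136) and the second without the first 2iL library (adjusted p = 0.0599). The levels in 2iL-F, 2iL and A2iL did not differ beyond their spread, with 0.10 between 2iL-F and 2iL (95% interval -0.29 to 0.48, adjusted p = 0.644).

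Fgf5 was lower than Fgf8 in SL, at 2.19 and 2.69 TPM (2.44 ± 0.351). It was listed at 0 in both 2iL libraries, at 0.273 and 0.0365 TPM in A2iL, at 0 and 0.0353 TPM in LCDM and at 0 and 0.0698 TPM in 2iL-F. The SL libraries again lay above all others, with a mean TPM 15.8 times that of A2iL. The differences from SL were -1.78 ± 0.13 in 2iL (adjusted p = 3.09e-06), -1.58 in A2iL (adjusted p = 2.38e-05), -1.75 in LCDM (adjusted p = 6.50e-06) and -1.73 in 2iL-F (adjusted p = 7.00e-06). With a pseudocount of 0.1 in place of 1 these came to -4.66, -3.49, -4.44 and -4.28. Below SL no step in the order of Fgf5 levels passed, and all of these levels were under 0.3 TPM. Fgf5 was tested through its SL libraries alone, as it reached 1 TPM nowhere else, and Fgf8 did so elsewhere in the second LCDM library only. Genes that enter the test through the group where they are high had to differ from the rest, and their calls add no support to a pattern of high levels in SL.

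**Figure D2:**
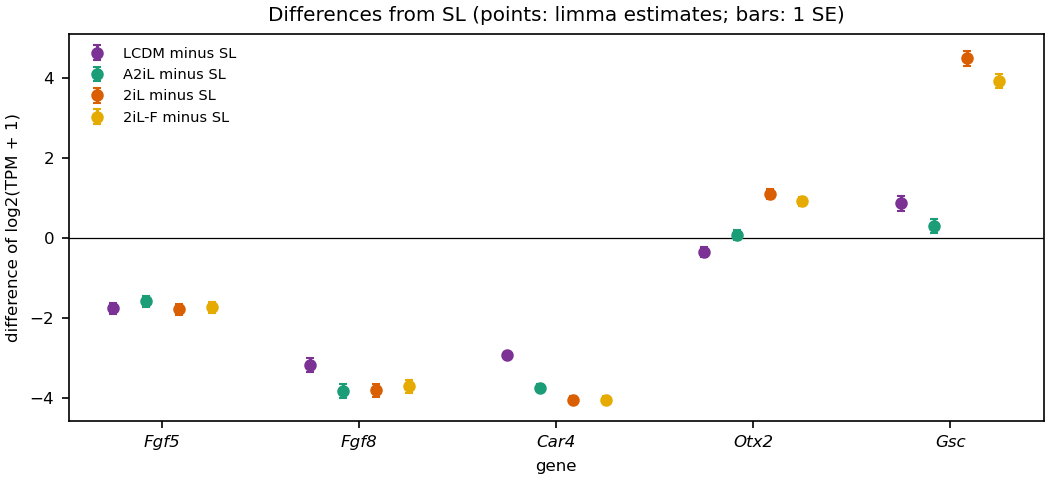
Difference of log2(TPM + 1) from SL for the 5 genes in LCDM, A2iL, 2iL and 2iL-F; points are limma estimates and bars 1 SE. Fgf5, Fgf8 and Car4 lie below 0 in every condition, Gsc lies at 4.49 in 2iL and 3.92 in 2iL-F, and Otx2 lies at 1.11 and 0.91 there and between -0.36 and 0.07 in LCDM and A2iL.

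The other FGF ligands did not share one direction. Beside Fgf5 and Fgf8, 9 ligand genes were tested of a list of 22, of which 16 stand in the usable lines. Of these 9, 4 were lower and 3 higher than SL in 2iL, 5 lower and 1 higher in A2iL, 5 lower and 0 higher in LCDM, and 4 lower and 2 higher in 2iL-F. Their median differences were -0.06, -0.39, -0.24 and -0.08, beside -0.04, -0.07, -0.00 and -0.08 over all tested lines. Fgf15, a ligand of the embryonic neural tube and the gut, was tested through SL alone as well, with 4.91 ± 0.307 TPM there and 0.159 to 0.553 TPM as means elsewhere, a difference of -2.18 ± 0.13 in 2iL and of -2.20, -1.93 and -2.35 in A2iL, LCDM and 2iL-F. Fgf17, a close relative of Fgf8, was lower than SL in all 4 media, with 45.0 ± 1.68 TPM in SL, 38.1 ± 1.89 in LCDM (-0.24 ± 0.08), 15.7 ± 1.22 in 2iL-F (-1.46), 14.4 ± 1.27 in 2iL (-1.58) and 9.30 ± 0.158 in A2iL (-2.16). Fgf7, a ligand made by mesenchymal cells, had 15.5 ± 0.906 TPM in SL, 8.79 ± 0.567 in A2iL, 1.33 ± 0.0219 in 2iL-F and 0.944 ± 0.105 in LCDM; its difference in 2iL was -3.99 ± 0.09. The part of the fibroblast markers, given above, in the levels of Fgf7 was not tested. Fgf21, a metabolic hormone, went the other way in 2iL, with 4.50 ± 0.497 TPM against 0.167 TPM in SL (2.23 ± 0.16), 0.933 in A2iL, 0.187 in 2iL-F and 0.297 in LCDM.

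**Figure D3:**
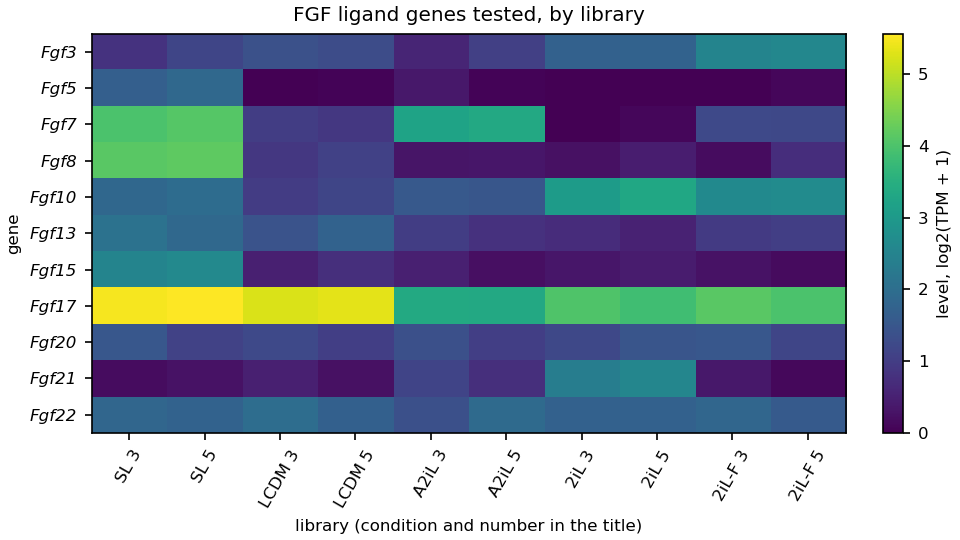
Level of the 11 tested FGF ligand genes as log2(TPM + 1), shown by colour, in each of the 10 libraries (columns, with the library numbers 3 and 5 of the labels). Fgf5, Fgf8 and Fgf15 are brighter in the SL columns than in any other, whereas Fgf17 is bright in SL and LCDM and Fgf21 is brightest in 2iL.

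The 4 tested receptor and coreceptor genes did not share one direction. Against SL, 2 were higher and 2 lower in 2iL, 0 higher and 3 lower in A2iL, and 1 higher and 2 lower in LCDM and in 2iL-F. Fgfr1, the main FGF receptor of the epiblast, was lower than in SL in all 4 media, with differences of -0.30 ± 0.05 in 2iL, -0.42 in 2iL-F, -0.48 in A2iL and -0.89 in LCDM, and had a mean of 29.7 TPM or more. Fgfr2, a receptor of the primitive endoderm, was also lower in all 4, with 25.1 TPM in SL, 20.1 in A2iL, 17.0 in LCDM, 13.1 in 2iL-F and 8.62 in 2iL. Fgfrl1 had 10.7 TPM in SL, 20.8 in 2iL, 13.6 in 2iL-F, 9.85 in LCDM and 7.07 in A2iL. Fgfr4 had 0.640 TPM in SL, 2.085 in 2iL, 2.85 in LCDM, 0.717 in A2iL and 0.388 in 2iL-F. Among 15 tested target genes of FGF and ERK, 15 were lower in 2iL, 6 lower and 5 higher in A2iL, 12 lower and 3 higher in LCDM, and 12 lower and 1 higher in 2iL-F than in SL, with medians of -3.40, -0.15, -0.82 and -2.25. Between the 2 labels of the same medium, 11 of the 15 were higher and 2 lower in 2iL-F than in 2iL, with a median of 0.91. Fos had 160 ± 2.23 TPM in 2iL-F, 3.39 ± 0.106 in 2iL and 160.5 ± 1.95 in SL. Dusp4 had 6.99 ± 0.684 TPM in 2iL-F, 8.77 ± 0.140 in 2iL and 77.0 ± 0.250 in SL. The part of the fibroblast markers in these levels was not tested. The targets also differed among themselves in A2iL. Spry4, a feedback inhibitor of the pathway, had 31.9 ± 0.727 TPM there, 25.6 and 28.4 in the 2 SL libraries and 0.258 ± 0.0410 in 2iL, whereas Dusp5, an ERK phosphatase, had 16.1 ± 0.617 TPM in A2iL, 62.2 ± 3.02 in SL and 4.97 ± 0.389 in 2iL. Myc, a growth regulator, had 19.6 ± 0.0261 TPM in A2iL and 68.6 ± 2.08 in SL.

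Car4 fell to 0 or near it in all 4 serum-free media. On the main scale, with a pseudocount of 1, its SE was the smallest of the 5 genes. With a pseudocount of 0.1 the SE of Otx2 was smaller, at 0.16 against 0.24 for Car4. Its level was 15.4 and 15.4 TPM in SL (15.4 ± 0.0423), 1.24 and 1.08 TPM in LCDM, and 0.231 and 0.232 TPM in A2iL, and it was listed at 0 in both 2iL and both 2iL-F libraries. All of these groups were apart except 2iL and 2iL-F. The mean TPM of SL was 13.3 times that of LCDM and 66.4 times that of A2iL. The differences from SL were -4.03 ± 0.09 in 2iL (adjusted p = 1.44e-09), -3.73 in A2iL (adjusted p = 3.40e-08), -2.93 in LCDM (adjusted p = 3.14e-08) and -4.03 in 2iL-F (adjusted p = 5.88e-09), and with a pseudocount of 0.1 the first and the last came to -7.28. LCDM exceeded A2iL by 0.81 (adjusted p = 0.000102). A2iL exceeded 2iL by 0.30 (adjusted p = 0.0142) and 2iL-F by 0.30 (adjusted p = 0.0223, among 45.3% of lines that passed in that comparison), with 69.5% of lines passing between A2iL and 2iL. With a pseudocount of 0.1 these 3 differences came to 1.92, 1.73 and 1.73. Without either A2iL library the calls of A2iL were lost (adjusted p = 0.0508 and 0.0516 against 2iL, 0.0786 and 0.0802 against 2iL-F), as was that against 2iL-F without either 2iL-F library (adjusted p = 0.0754 and 0.0750).

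The other carbonic anhydrases differed among themselves. Of 8 tested beside Car4, 3 were lower and 3 higher than SL in 2iL, 2 lower and 1 higher in A2iL, 3 lower and 2 higher in LCDM, and 2 lower and 3 higher in 2iL-F. Car2, a cytosolic enzyme, fell with Car4 in all 4 media, from 53.3 ± 2.94 TPM in SL to between 4.18 and 10.9 TPM as means (-2.68 ± 0.10, -3.39, -2.19 and -3.01 in 2iL, A2iL, LCDM and 2iL-F). Car13, also cytosolic, rose in all 4, from 6.83 to between 14.3 and 28.9 TPM (1.89 ± 0.12, 1.27, 0.97 and 1.93). Car5a, a mitochondrial enzyme, followed the pattern of Otx2 and Gsc, with 10.1 ± 1.25 TPM in 2iL and 5.25 in 2iL-F against 0.911 in SL, 1.06 in A2iL and 1.93 in LCDM.

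Otx2, the homeobox gene of the formative epiblast, did not move with Fgf5 and Fgf8. It had 2.33 and 3.12 TPM in SL (2.73 ± 0.556), 6.25 and 7.81 in 2iL (7.03 ± 1.10), 3.04 and 2.77 in A2iL (2.91 ± 0.192), 1.91 and 1.88 in LCDM (1.90 ± 0.0212), and 6.03 and 5.94 in 2iL-F (5.99 ± 0.0686). All 4 libraries with PD0325901 lay above the other 6. The mean TPM was 2.58 times that of SL in 2iL and 2.20 times in 2iL-F, with differences of 1.11 ± 0.12 (adjusted p = 4.15e-05) and 0.91 (adjusted p = 0.000227). A2iL overlapped SL, with a difference of 0.07 (95% interval -0.21 to 0.36, adjusted p = 0.642).

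LCDM had the lowest Otx2, below SL by 0.36 ± 0.12 (adjusted p = 0.0320) and below A2iL by 0.43 (adjusted p = 0.0179). The call against SL was lost with no filter on low values (adjusted p = 0.0545), in a fit of the 4 libraries alone (adjusted p = 0.0645), with quantile normalisation (-0.19, adjusted p = 0.135), and without the second SL library (-0.20, adjusted p = 0.214) or either LCDM library (adjusted p = 0.0894 and 0.101). The call against A2iL was lost without the first A2iL library (adjusted p = 0.0926) or either LCDM library (adjusted p = 0.0616 and 0.0685). The levels of Otx2 in 2iL and 2iL-F did not differ beyond their spread (-0.19, 95% interval -0.48 to 0.09, adjusted p = 0.206).

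Other anterior neural genes, a list of 14 with 5 tested beside Otx2, included 3 higher and 2 lower than SL in 2iL and in 2iL-F, 1 higher and 2 lower in A2iL, and 3 higher and 2 lower in LCDM. Otx1, the nearest relative of Otx2, was higher than SL in all 4 media, by 1.03 ± 0.12 in 2iL, 0.52 in 2iL-F, 0.40 in LCDM and 0.39 in A2iL, but at 1.16 ± 0.137 TPM or less, and it was tested through 2iL alone. Pax6, a regulator of eye and forebrain, reached 1 TPM in SL alone, with a mean of 2.69 TPM there and at most 0.338 TPM elsewhere, and was tested through those libraries. Gbx2, which opposes Otx2 at the midbrain and hindbrain boundary and is also a naive pluripotency gene, was lowest where Otx2 was highest, with 93.8 ± 1.25 TPM in SL, 61.1 in A2iL, 53.4 in LCDM, 25.7 in 2iL-F and 10.8 in 2iL.

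Gsc rose most of the 5 genes. It had 0.394 and 0.910 TPM in SL (0.652 ± 0.365), 39.9 and 31.6 in 2iL (35.8 ± 5.84), 22.1 and 25.6 in 2iL-F (23.8 ± 2.42), 1.99 and 1.95 in LCDM (1.97 ± 0.0316) and 1.25 and 0.792 in A2iL (1.02 ± 0.327). The libraries with PD0325901 all lay above 22 TPM and the other 6 below 2 TPM. The mean TPM was 54.9 times that of SL in 2iL (4.49 ± 0.18, adjusted p = 5.29e-08) and 36.6 times in 2iL-F (3.92, adjusted p = 2.70e-07). A2iL shares the basal medium and Chir99021 with 2iL but has CGP77675 in place of PD0325901. Gsc in A2iL differed from 2iL by -4.18 (adjusted p = 1.32e-07) and from 2iL-F by -3.62 (adjusted p = 1.17e-06). The lack of PD0325901 and the presence of CGP77675 cannot be told apart in this comparison.

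Smaller steps in Gsc lay below and between these. LCDM exceeded SL by 0.86 ± 0.18 (adjusted p = 0.00251), or 1.55 with a pseudocount of 0.1, while A2iL overlapped SL (0.30, 95% interval -0.11 to 0.71, adjusted p = 0.187). LCDM also exceeded A2iL by 0.56 (adjusted p = 0.0261), or 0.91 with a pseudocount of 0.1, a call lost without either LCDM library (adjusted p = 0.0897 and 0.0799) or the second A2iL library (0.40, adjusted p = 0.160). Between the 2 labels of the same medium, 2iL had 1.50 times the mean TPM of 2iL-F, and 2iL-F was lower by 0.56 (adjusted p = 0.0232). That call was lost with a pseudocount of 0.1 (-0.58, adjusted p = 0.151), without the first 2iL library (-0.40, adjusted p = 0.136) and without the first 2iL-F library (-0.46, adjusted p = 0.126).

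The other tested genes of the primitive streak and axial mesendoderm did not rise with Gsc as a group. The list holds 27 genes, of which 20 stand in the usable lines and 14 were tested. T and Foxa2 are among those outside the usable lines. Of 11 tested beside Gsc, Fgf8 and Car4, 5 were higher and 4 lower than SL in 2iL, 3 and 4 in A2iL, 5 and 2 in LCDM, and 3 and 4 in 2iL-F, with medians of 0.24, 0.03, 0.21 and -0.18. Wnt3, the Wnt ligand that starts the streak, was likewise tested through SL alone, with 6.12 ± 1.08 TPM there and 0.151 to 0.318 TPM as means elsewhere (-2.48 ± 0.15, -2.42, -2.62 and -2.59 in 2iL, A2iL, LCDM and 2iL-F). Chrd, an organizer BMP antagonist, had 5.92 ± 0.528 TPM in 2iL, 2.28 in 2iL-F, 2.12 in A2iL, 1.64 in LCDM and 1.30 in SL. Eomes, a T-box factor of mesendoderm, had 8.49 ± 0.396 TPM in LCDM against 3.68 in SL (1.02 ± 0.07), 5.03 in A2iL, 4.33 in 2iL and 3.75 in 2iL-F.

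Nodal and activin, the signals known to activate Gsc, were represented by 13 tested pathway genes, of which 7 were lower than SL in each of the 4 media and 4, 2, 4 and 4 were higher in 2iL, A2iL, LCDM and 2iL-F. Acvr1b, the type I receptor of this pathway, was higher than SL in all 4 media, by 1.65 ± 0.07 in 2iL, 1.35 in LCDM, 0.96 in A2iL and 0.79 in 2iL-F, from 12.2 TPM in SL. Pcsk6, a convertase that processes Nodal, was also higher in all 4, at 56.5 TPM in 2iL, 53.1 in 2iL-F, 27.2 in LCDM and 23.8 in A2iL against 16.0 in SL. Skil, a SMAD corepressor, fell from 33.9 TPM in SL to between 10.1 and 13.7 TPM, and its profile was among those most like that of Car4.

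Most tested genes of the wider primed and formative list were lower in each of the 4 serum-free media. The list holds 26 genes, of which 15 stand in the usable lines. Of 12 tested beside Fgf5, Fgf8 and Otx2, 11 were lower and 1 higher than SL in 2iL, 11 lower in A2iL, 10 lower and 1 higher in LCDM, and 11 lower and 1 higher in 2iL-F, with medians of -3.42, -1.29, -2.07 and -3.26. Between the 2 labels of the same medium, 6 of these 12 were higher and 3 lower in 2iL-F than in 2iL. Sfrp2 had 16.2 TPM in 2iL-F and 1.73 in 2iL, and Krt18 had 4.19 and 19.9. Wnt8a, a Wnt ligand of the epiblast and streak, was tested through SL alone. It went from 25.5 TPM there to 0.769 in A2iL, 0.526 in LCDM, 0.0256 in 2iL-F and 0.0251 in 2iL. Lef1, a nuclear effector of Wnt signalling, had 19.8 TPM in SL, 11.2 in A2iL, 2.48 in LCDM, 0.704 in 2iL-F and 0.0487 in 2iL. Of 9 tested naive genes, 7 were higher and 2 lower in 2iL and 9 were higher in each of the other media. Nanog, a core pluripotency factor, had 134 ± 1.99 TPM in SL, 267 ± 3.90 in A2iL, 462 ± 16.4 in LCDM, 648 ± 6.13 in 2iL-F and 668 ± 86.4 in 2iL. Otx2 was thus high together with Nanog in 2iL and 2iL-F and low with high Nanog in LCDM.

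Levels of fibroblast markers were set beside the members in each library. Fgf8, Fgf5 and Car4 were near 0 in A2iL and 2iL-F, where the fibroblast sums, 3581 to 3672 TPM and 5288 to 5491 TPM, lay on either side of the 4378 to 4595 TPM of SL. Gsc was high in 2iL, with sums of 988 to 1044 TPM, and in 2iL-F, with sums of 5288 to 5491 TPM. It was low both in LCDM, at 1265 to 1266 TPM, and in A2iL. The sums understate how far LCDM and 2iL differed in these markers. In 2iL, Fn1, Sparc and Timp1 had means of 403, 441 and 126 TPM, while Col1a1 had 0.232 TPM against 107 in LCDM. Of the 32 markers, 28 were higher and 3 lower in LCDM than in 2iL, with a median difference of 2.68. A further fit took out 747 lines whose profile followed the mean log2(TPM + 1) of the 32 fibroblast markers (r above 0.9). The difference of Gsc from SL was then 4.47 in 2iL and 3.97 in 2iL-F. That of Fgf8 was -3.88, -3.89, -3.23 and -3.77 in 2iL, A2iL, LCDM and 2iL-F. That of Otx2 was 1.06 in 2iL and 0.91 in 2iL-F. This fit only rescales the values of the 5 genes, so it cannot show what fibroblast RNA added to them. Sums of primitive endoderm markers were highest in SL, at 133 to 138.5 TPM, against 55.1 to 101 TPM elsewhere, and those of trophoblast markers were lowest there, at 32.0 to 34.1 TPM, against 64.6 to 128.5 TPM elsewhere. Single genes made up much of both sums, and other markers went the other way. Col4a1 had 101 TPM in SL, but Lama1 was lowest there, at 8.45 TPM against 42.9 in 2iL. Tfap2c had 23.6 TPM in SL and 118 in 2iL. Cdx2 was highest in SL, at 3.66 TPM against 0 in 2iL, as was Gata3, at 1.42 TPM. The part of these other markers in the levels of the 5 genes was not tested.

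**Figure D4:**
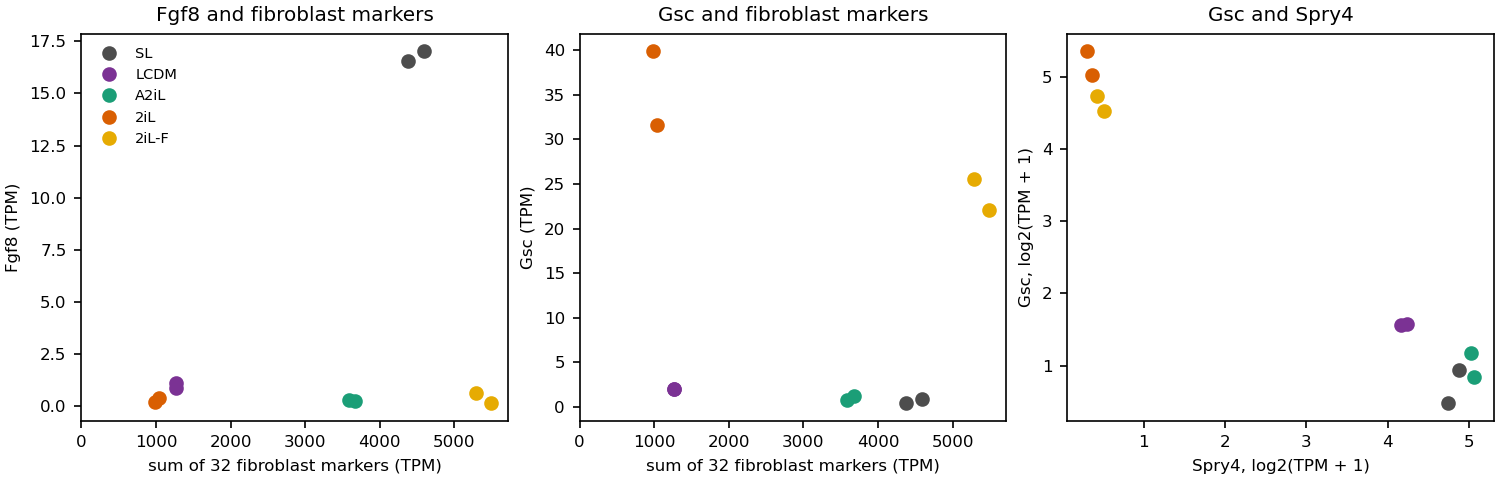
Each point is 1 of the 10 libraries, coloured by condition: Fgf8 (left) and Gsc (middle) in TPM against the summed TPM of 32 fibroblast markers, and Gsc against Spry4 (right), both as log2(TPM + 1). Gsc is at 22.1 TPM or more at both ends of the marker axis, in 2iL and 2iL-F, and Fgf8 is above 1.11 TPM in SL only.

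The genes with the most similar profiles were ranked by Pearson's r of log2(TPM + 1) over the 10 libraries, among 2263 genes with at least 5 TPM in 2 libraries and a range of condition means of at least 1. The 10 libraries are 5 conditions with 2 each, so r describes 5 levels and carries no p. The ranking depends on the pseudocount. With 0.1 in place of 1, the 5 genes nearest to Otx2 kept ranks 1 to 5, while those nearest to Gsc came to ranks 1 to 13, those to Fgf8 to ranks 1 to 14, those to Fgf5 to ranks 1 to 36 and those to Car4 to ranks 11 to 46. Fgf8 and Car4 were close to each other (r = 0.986), and Fgf5 had r = 0.967 with Fgf8 and 0.950 with Car4. Otx2 and Gsc had r = 0.910.

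Nearest to Fgf8 were Krt20 (r = 0.994), a keratin, Mmp25 (0.992), a membrane metalloproteinase, Kif5c, a kinesin, Prtg (0.988), an adhesion receptor of the early embryo, and Spink1 (0.988), a protease inhibitor. Prtg had 29.1 TPM in SL and 2.38 to 5.29 TPM elsewhere. Car4 was nearest to Prtg (0.995), Spink1 (0.992), Fgf8, Skil (0.985) and Wt1 (0.984), a zinc finger factor. For Fgf5 the list began with Fndc3c1 (0.996), at 9.65 TPM in SL and at most 0.283 TPM as a mean elsewhere, and Wnt3 (0.992), followed by Tpm1 (0.988), Wnt8a (0.987) and Krt20 (0.984). Of these neighbours, Krt20, Mmp25, Spink1, Wt1, Fndc3c1, Wnt3, Wnt8a and Fgf8 met the minimum of 5 TPM through SL alone. They had to be high where Fgf5, Fgf8 and Car4 were high, so their r adds no support to that pattern. Genes with the opposite profile were Esrrb, a naive factor (-0.987), Lrrc34 (-0.981) and Qdpr (-0.978) for Fgf5, Padi4 (-0.989), Apoe (-0.983) and Rundc3a (-0.981) for Fgf8, and Pltp (-0.993), Renbp (-0.991) and Padi4 (-0.988) for Car4. Apoe, the lipoprotein gene, had 310 TPM in SL and 866 to 1385 TPM elsewhere.

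Gsc was nearest to Vwf (r = 0.993), which encodes a clotting factor of endothelium, Lpl (0.992), a lipase, Pdia5 (0.991), a disulfide isomerase, Ffar3 (0.990), a fatty acid receptor, and Mfge8 (0.990), a secreted glycoprotein. Vwf had 14.4 TPM in 2iL, 8.37 in 2iL-F and 0.178 in SL. Ffar3 had 5.45 TPM in 2iL and at most 3.08 TPM as a mean elsewhere, so it met the minimum of 5 TPM mainly through 2iL. The lowest r with Gsc belonged to Evc, Spry4 (-0.990) and Dusp6 (-0.990). Dusp6, an ERK phosphatase induced by ERK, had 2.56 ± 0.0982 TPM in 2iL and 6.41 ± 0.265 in 2iL-F, against 35.2 ± 0.106 in LCDM, 56.9 ± 3.52 in A2iL and 62.5 ± 0.351 in SL. Otx2 was nearest to Rcan1 (0.984), a calcineurin regulator, Me1 (0.982), the malic enzyme, Plekhb2 (0.978), Prickle2 (0.977) and St5 (0.972), and farthest from Ppdpf (-0.980), Porcn (-0.979), which acylates Wnt ligands, and Etv4 (-0.967), an ETS factor of the FGF pathway. Etv4 had 140 TPM in LCDM, where Otx2 was lowest, and 24.7 TPM in 2iL-F.

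**Figure D5:**
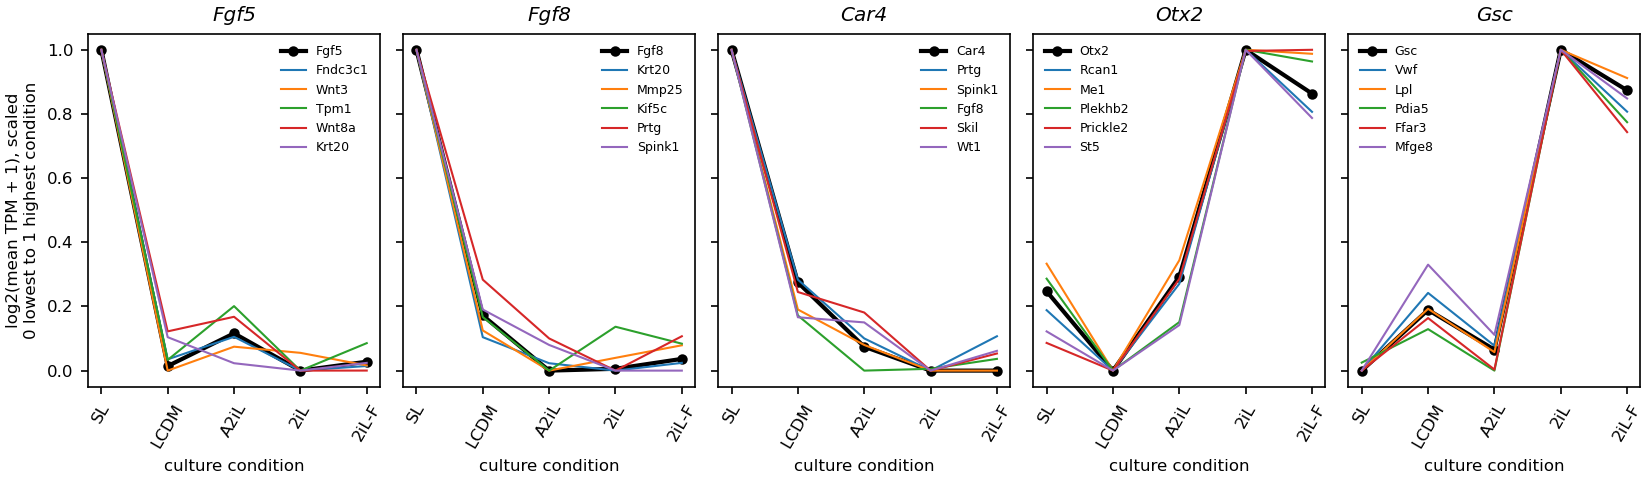
Mean profile over the 5 conditions of each of the 5 genes (black) and of the 5 genes with the highest Pearson r to it (colours), as log2(mean TPM + 1) scaled from 0 in the lowest to 1 in the highest condition. Profiles of Fgf5, Fgf8 and Car4 drop from SL to all other conditions, and those of Otx2 and Gsc are high in 2iL and 2iL-F.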

How the data were processed

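RNA-seq was done on 10 libraries of 5 culture conditions. The deposited values are TPM in 1 table of 20494 lines, scaled by the authors to the library total and transcript length; the submitters' processing notes name Bowtie2, RSEM, DESeq2, R 3.4.2 and mm10, without roles. Per the labels' protocols, RNA came from a Qiagen kit and libraries from a NEBNext Ultra kit. TPM keep no read number, so depth per library is unknown; the values of a library added up to between 71.0% and 73.0% of a full TPM total.

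Whether symbols stand beside their values was checked with gene families active in nearly all cells (broad) or in other tissues only (restricted). In lines 1 to 9865, 5 TPM or more was found for 97.4% of 346 broad and 8.05% of 87 restricted genes (area under the curve 0.966). Below line 9865 the area was 0.580 on a symbol's own line and 0.952 on the next line, so genes there are not named. Within 1000 lines of each of the 5 genes the area was 0.912 to 0.998.

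Log2(TPM + 1) values of lines with at least 1 TPM in 2 or more libraries (14578, of which 7962 can be named) went into limma 3.58.1 under R 4.3.3 (lmFit, eBayes with trend). The model had 1 mean per condition over all 10 libraries, without covariates. Residual degrees of freedom were 5, with a median of 8.31 after moderation. In each of 10 pairwise comparisons, Benjamini-Hochberg adjustment of the two-sided p-values ran over all tested lines. An exact permutation test of 2 against 2 libraries cannot go below 0.333 and was not run. The fit was tested on simulated data. The rule for naming took the 5 genes, up to 4 passing members per list and comparison with the largest difference, and the 5 most and 3 least similar genes. The genes and the 14 lists were chosen with earlier results of these data known.

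The fit was repeated with quantile normalisation, with median-of-ratios scaling, with a pseudocount of 0.1 and with a filter at 5 TPM or none. It was also run with robust eBayes, with a replicate block, on the libraries compared alone and on the named lines alone. Further runs left out lines following the mean log2(TPM + 1) of the fibroblast markers, or 2iL and 2iL-F, or 1 library at a time. A crossed block for LCDM and 2iL was added after seeing the data. Figures were made with Python 3.11.15 and matplotlib 3.10.9.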

Additional observations from a re-analysis of the deposited data

How the results depend on the processing

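Across the 5 main comparisons, 250 values under alternatives other than leaving out a library kept their direction and their side of the threshold, 4 lost their call and 1 turned. Otx2 in LCDM against SL lost its call at -0.36 with no filter and in the 4 libraries alone and at -0.19 with quantile normalisation, and ranged from -0.51 to -0.20 with 1 library left out. Gsc in 2iL-F against 2iL lost its call at -0.58 with a pseudocount of 0.1 and ranged from -0.72 to -0.40. Fgf8 in 2iL-F against 2iL, never past the threshold, turned to -0.14 with quantile normalisation and ranged from -0.17 to 0.37. With 1 library left out, Otx2 in A2iL against SL ranged from -0.0783 to 0.23 and Gsc there from 0.0737 to 0.53, past the threshold without the second SL library (adjusted p = 0.0474). Fgf8 ranged from -0.11 to 0.0784 between A2iL and 2iL and from -0.38 to 0.16 between A2iL and 2iL-F, and Fgf5 from -0.0724 to 0.0250 between LCDM and 2iL-F. In fits of the 4 libraries alone, Car4 in A2iL against 2iL-F (adjusted p = 0.0521) and Fgf8 in LCDM against 2iL-F (adjusted p = 0.0768) lost their calls. With the named lines alone, where fewer lines are tested, 6469, 4835, 5664, 5645 and 5332 lines passed in 2iL, A2iL, LCDM and 2iL-F against SL and in 2iL-F against 2iL. With median-of-ratios scaling the higher share of calls in A2iL against SL went from 40.7% to 51.4%. Fgf5 was not tested with a filter of 5 TPM or without either SL library. With the replicate block, 11241, 7618, 9484, 9413 and 8858 lines passed and no call of the 5 genes changed. Same-numbered libraries had deviations that correlated at -0.131 to 0.0746, so no strong shared deviation was seen. The labels do not say whether libraries numbered 3 or 5 were prepared together. With crossed numbers 9213 lines passed in LCDM against 2iL, and 8869 with the block as labelled. TPM give no depth, so values below about 1 TPM carry an unknown counting error.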
